A study of Homo sapiens with 24 samples.

Results

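The genes described are 10 members of the CD28-B7 and PVR-nectin families of immune checkpoint and co-stimulation molecules, of 25341 genes used from the expression table. They were chosen by symbol, as members of these families that the myeloma cells might express, with their levels and the changes of PVRIG and CD28 in these libraries already known. Levels, and every value of PVRIG and CD28, are therefore given as a description. The members were PVRIG, TIGIT, CD96 and CD226, which are receptors, their ligands PVR and PVRL2, the receptor CD28 with its ligands CD80 and CD86, and CD274, the ligand of PD-1. Of the 10 members, 9 passed the filter on low values (at least 1 TPM in at least 3 libraries), and CD80 did not.

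RNA sequencing had measured 4 human myeloma cell lines, MM1R, MM1S, KMS-12-BM and KMS-12-PE, with 3 siIRF4 and 3 CTRL libraries of each, 24 in all. In siIRF4 cells a pool of siRNAs against the transcription factor IRF4, on which myeloma cells rely, had been delivered by electroporation and total RNA was taken at 48 hours. CTRL cells are labelled DMSO at 0 hours, and the labels name no control siRNA, so siRNA delivery, electroporation, DMSO and time differ together between siIRF4 and CTRL and cannot be told apart. All cells were grown in RPMI medium with fetal bovine serum. As background, MM1R and MM1S are the glucocorticoid-resistant and glucocorticoid-sensitive sublines of the same patient's myeloma, and KMS-12-BM and KMS-12-PE came from the marrow and the pleural effusion of another patient, so the 4 lines stand for 2 patients. Nothing in the labels states that replicates were separate cultures, so the p-values cover the spread between libraries alone, which may be technical.

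In immune tissue these genes are known from the surface of T cells, NK cells and antigen-presenting cells. CD28 gives T cells a co-stimulatory signal when it binds CD80 or CD86. CD226 activates T and NK cells when it binds PVR or PVRL2, whereas TIGIT and CD96, which bind PVR, and PVRIG, which binds PVRL2, restrain them. Plasma cells and myeloma cells are known to express CD28 and CD86 themselves, and this pair is known to support their survival.

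PVRIG, CD28, CD96 and CD274 are shown by their promoters, PVRIG because it was higher in siIRF4 cells of all 4 lines and the others because, among the members, their promoters held a motif that was searched. The sequences are from RefSeq (GRCh38.p14, not the hg19 build of the expression data), from 250 bases before to 50 bases after the gene's start, and capitals mark the motif matches.
PVRIG, chr7:100219699-100219998, plus strand: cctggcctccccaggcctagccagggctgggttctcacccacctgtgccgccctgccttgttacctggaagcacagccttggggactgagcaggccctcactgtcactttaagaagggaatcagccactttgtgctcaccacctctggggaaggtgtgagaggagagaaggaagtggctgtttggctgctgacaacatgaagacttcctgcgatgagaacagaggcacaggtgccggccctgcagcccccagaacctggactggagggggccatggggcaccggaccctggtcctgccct
CD28, chr2:203706389-203706688, plus strand: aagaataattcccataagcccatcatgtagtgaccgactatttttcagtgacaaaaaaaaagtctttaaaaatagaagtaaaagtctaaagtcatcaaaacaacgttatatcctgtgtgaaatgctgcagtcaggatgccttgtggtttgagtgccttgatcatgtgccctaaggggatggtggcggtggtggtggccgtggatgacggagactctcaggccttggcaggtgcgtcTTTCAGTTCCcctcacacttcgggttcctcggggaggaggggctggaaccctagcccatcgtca
CD96, chr3:111541947-111542246, plus strand: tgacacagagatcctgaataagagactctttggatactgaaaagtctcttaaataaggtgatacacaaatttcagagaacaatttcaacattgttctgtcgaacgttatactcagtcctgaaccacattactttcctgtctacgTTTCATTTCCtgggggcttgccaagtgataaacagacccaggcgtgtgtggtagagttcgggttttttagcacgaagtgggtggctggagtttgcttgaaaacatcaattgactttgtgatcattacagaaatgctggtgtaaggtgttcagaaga
CD274, chr9:5450292-5450591, plus strand: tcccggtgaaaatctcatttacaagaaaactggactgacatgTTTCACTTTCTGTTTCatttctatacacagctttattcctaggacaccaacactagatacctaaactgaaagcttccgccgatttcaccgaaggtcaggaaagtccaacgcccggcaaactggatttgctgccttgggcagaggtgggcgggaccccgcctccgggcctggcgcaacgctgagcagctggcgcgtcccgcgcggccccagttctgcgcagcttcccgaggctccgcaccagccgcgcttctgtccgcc
All 10 members matched the RefSeq table, with 12 promoters, and 3 promoters held a match. The motifs were the ISRE core GAAANNGAAA, the ETS-IRF composite GGAANNGAAA and the AP-1 site TGACTCA, each on both strands. CD28 and CD96 each held an ETS-IRF composite, 14 and 106 bases before the start, on the strand opposite to the one printed. CD274 held 2 overlapping ISRE cores, 208 and 202 bases before the start, also on the opposite strand. Over 35116 promoters of the same length, 3.57% held the ISRE core, 2.82% the ETS-IRF composite and 4.95% the AP-1 site. At a given position a sequence can match the ISRE core or the ETS-IRF composite but not both. A match is a description of letters and was not tested for binding.

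Libraries held 17.3 to 27.4 M recovered reads, and r across genes was 0.993 to 0.996 between libraries of a group. IRF4 fell in every line, with means of 291 TPM in MM1R siIRF4 and 380 TPM in MM1R CTRL libraries. The means were 141 TPM in MM1S siIRF4 and 283 TPM in MM1S CTRL libraries. They were 155 TPM in KMS-12-PE siIRF4 and 327 TPM in KMS-12-PE CTRL libraries, and 222 TPM in KMS-12-BM siIRF4 and 361 TPM in KMS-12-BM CTRL libraries. The log2 change was least in MM1R, at -0.39, against -0.70 (KMS-12-BM), -1.01 (MM1S) and -1.07 (KMS-12-PE), each with an SE of 0.067. All 10 plasma cell markers averaged at least 1 TPM in every group. Markers of other cell types ranged widely. The T cell gene CD3D reached at most 0.434 TPM and the monocyte gene CD14 at most 0.848 TPM in any library, whereas the T cell gene TRAT1 averaged up to 74.0 TPM (MM1S CTRL), the myeloid gene S100A9 up to 99.5 TPM (KMS-12-PE CTRL) and the epithelial keratin KRT15 up to 165 TPM (MM1R siIRF4). SDC1, which encodes the plasma cell marker CD138, was low in KMS-12-BM, with 6.41 ± 2.72 TPM in siIRF4 and 6.05 ± 0.432 TPM in CTRL libraries (SD, n = 3 each).

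Genes of the MM1 lines were read in the KMS-12 libraries before the members, because several members were near 0 there. ITGB7, MAF and CCND2 are expressed far more strongly in the MM1 lines, and their levels in a KMS-12 library, as a percent of the mean MM1 level in the same condition, show how much of a gene can be present at such a level. Against MM1R, the KMS-12-BM siIRF4 library 1 stood apart, with 1.04% of the ITGB7 level, 0.792% for MAF and 1.32% for CCND2. The other siIRF4 libraries of KMS-12-BM had 0.324 to 0.357% for ITGB7, 0.191 to 0.221% for MAF and 0.524 to 0.751% for CCND2. KMS-12-BM CTRL libraries had 0.536 to 0.607%, 0.291 to 0.525% and 0.171 to 0.336% for ITGB7, MAF and CCND2 in that order. Against MM1S, KMS-12-PE siIRF4 libraries had 0.0951 to 0.112% for ITGB7, 0.0188 to 0.0482% for MAF and 0.166 to 0.269% for CCND2. KMS-12-PE CTRL libraries had 0.622 to 0.876%, 0.843 to 1.25% and 0.674 to 1.0% for the same genes. The 3 genes were thus lower in all 3 siIRF4 libraries of KMS-12-PE than in its CTRL libraries.

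Reads of keratinocyte and stromal genes also differed between lines and conditions. KRT5, a keratin of basal epithelial cells, averaged 34.5 TPM in MM1S siIRF4 and 50.9 TPM in MM1S CTRL libraries. In KMS-12-PE it averaged 17.4 TPM in siIRF4 and 55.8 TPM in CTRL libraries, with no overlap. In MM1R and KMS-12-BM KRT5 was at most 0.0518 TPM in any library. KRT15, another keratin of basal epithelium, went the other way in the MM1 lines. It averaged 165 TPM in MM1R siIRF4 and 19.6 TPM in MM1R CTRL libraries, and 82.2 TPM in MM1S siIRF4 and 10.0 TPM in MM1S CTRL libraries, rises of 3.01 and 2.93 (log2, SE 0.18, limma adjusted p at most 1.55e-10). The summed level of the 12 stromal and epithelial markers was 155 to 190 TPM in MM1R siIRF4 and 22.1 to 26.2 TPM in MM1R CTRL libraries. In MM1S it was 201 to 256 TPM in siIRF4 and 173 to 227 TPM in CTRL libraries, which overlapped. KMS-12-PE had 186 to 214 TPM in siIRF4 and 312 to 337 TPM in CTRL libraries, and KMS-12-BM 191 to 199 TPM in siIRF4 and 209 to 218 TPM in CTRL libraries. Most of the KMS-12-BM sum was the epithelial gene EPCAM, with 152 TPM in siIRF4 and 146 TPM in CTRL libraries. COL6A3 followed there, with 40.4 TPM in siIRF4 and 67.1 TPM in CTRL libraries. EPCAM averaged 139 TPM in KMS-12-PE siIRF4 and 129 TPM in KMS-12-PE CTRL libraries, and was called in neither KMS-12 line. The part of these markers in the members' changes was not tested.

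PVRIG, an inhibitory receptor that binds PVRL2, was the member expressed in all 4 lines, and its level was higher in siIRF4 cells of each. In MM1R its level was 36.8, 34.2 and 31.5 TPM in siIRF4 and 19.1, 21.4 and 18.2 TPM in CTRL libraries. MM1S siIRF4 libraries had 33.5, 28.5 and 29.6 TPM, against 17.2, 17.2 and 15.7 TPM in MM1S CTRL libraries. The MM1 lines were thus close to each other in both conditions, and the groups did not overlap. KMS-12-BM siIRF4 libraries had 69.3, 59.2 and 51.6 TPM, against 22.4, 21.7 and 25.1 TPM in CTRL. KMS-12-PE siIRF4 libraries had 20.9, 18.5 and 19.8 TPM, against 5.32, 5.40 and 4.44 TPM in CTRL. KMS-12-PE therefore had the lowest level in both conditions, and its siIRF4 libraries reached the CTRL level of MM1R.

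**Figure D1:**
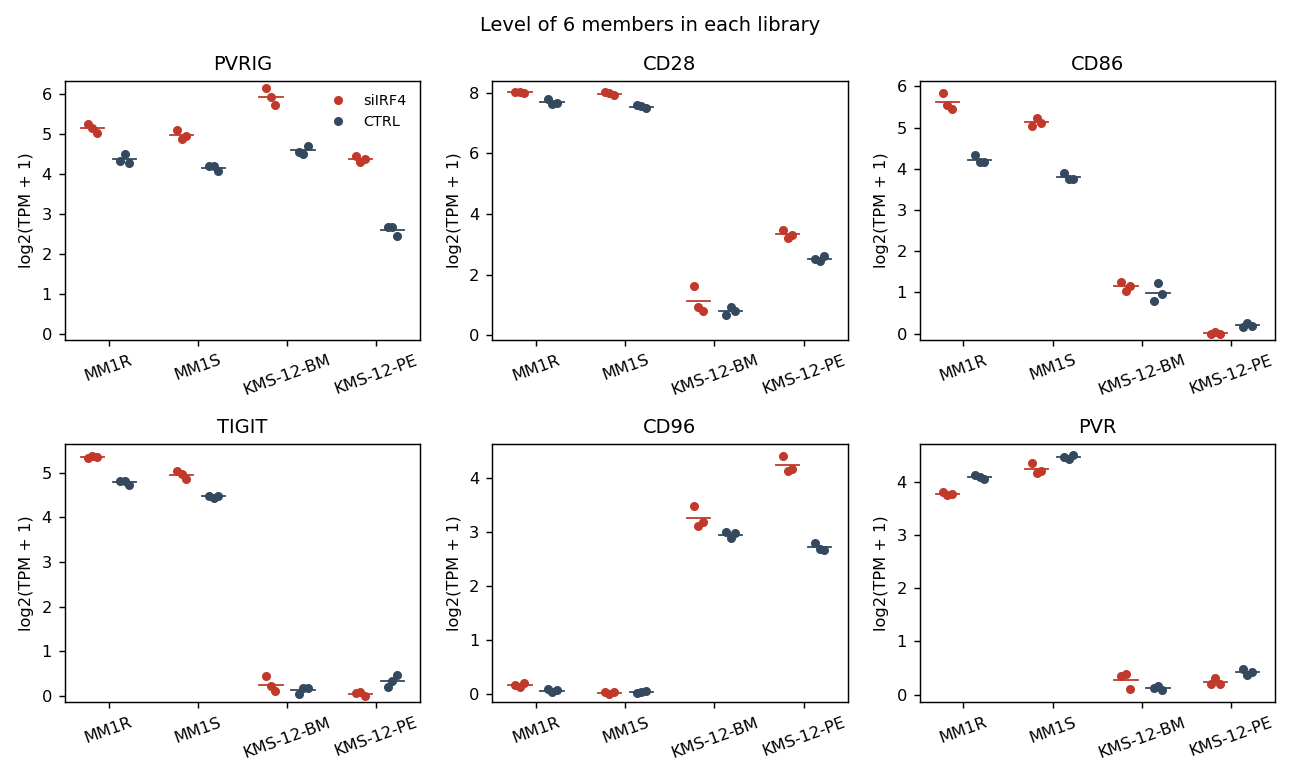
Level of 6 members as log2(TPM + 1) in each of the 24 libraries, by line, with siIRF4 left of CTRL; points are libraries and lines are group means. PVRIG was expressed in all 4 lines, CD28, CD86, TIGIT and PVR mainly in MM1R and MM1S, and CD96 in both KMS-12 lines.

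On the log2(TPM + 1) scale, which understates changes of low genes, PVRIG differed by 0.77 in MM1R and 0.83 in MM1S (siIRF4 minus CTRL, SE 0.094 each). The difference was 1.33 for KMS-12-BM and 1.78 for KMS-12-PE, with the same SE. The mean TPM ratios were 1.75 (MM1R), 1.83 (MM1S), 2.60 (KMS-12-BM) and 3.91 (KMS-12-PE). The average over the 4 lines was 1.18 ± 0.047 (SE), and 0.98 without KMS-12-PE. In KMS-12-BM the difference was 1.23 without siIRF4 library 1. The difference in the MM1 lines was smaller than in the KMS-12 lines by 0.75 (log2, SE 0.094), given as a description because PVRIG was singled out for its change. Over all genes tested in that average, 33.1% were called higher and 26.5% lower, from which nothing is read about PVRIG. The reads behind these levels were 281 to 1227 per siIRF4 library and 66 to 427 per CTRL library. In the MM1 lines PVRIG had 204 to 586 reads per library, few beside the 6925 to 14639 of CD28. In KMS-12-BM PVRIG had more reads than CD28. In bulk RNA, fewer cells expressing a gene and less RNA per cell cannot be told apart, here and for every member below.

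PVRIG lies in a crowded place, and part of its reads may belong to other transcripts. In the RefSeq annotation it overlaps STAG3, a meiotic cohesin gene, and CASTOR3P, a transcribed pseudogene listed in the table under its older symbol GATS. GATS averaged 11.2 TPM in MM1R siIRF4 and 7.70 TPM in MM1R CTRL libraries, and rose in all 4 lines, by 0.48 in both MM1 lines, 0.68 in KMS-12-PE and 0.92 in KMS-12-BM (log2, SE 0.11; limma adjusted p at most 0.00126). STAG3 rose in MM1R, MM1S and KMS-12-PE, by 0.39, 0.54 and 0.41 (limma adjusted p at most 0.0232), and differed by 0.13 in KMS-12-BM (limma adjusted p = 0.584). The strand setting of the counting is not given in the sources used here, so reads of overlapping genes cannot be told apart. PVRIG2P, a pseudogene named after PVRIG, had 0 TPM in every group. The joint entry STAG3L5P-PVRIG2P-PILRB rose in KMS-12-BM (log2 0.30, limma adjusted p = 0.0134) and KMS-12-PE (0.33, 0.00278). It was not called in MM1R (0.18, 0.0727) or MM1S (0.16, 0.12). The part of this entry in the PVRIG reads was not tested. Per length, PVRIG was above GATS in each siIRF4 group, least in KMS-12-PE (19.7 beside 9.07 TPM), and in the CTRL groups of the other 3 lines. In KMS-12-PE CTRL libraries, the base of the PVRIG ratio of 3.91, PVRIG averaged 5.05 TPM, below the 5.32 TPM of GATS.

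TIGIT, the inhibitory receptor for PVR, was expressed in the MM1 lines. Its level was 39.3, 40.7 and 39.8 TPM in MM1R siIRF4 and 27.2, 27.0 and 25.7 TPM in MM1R CTRL libraries. In MM1S it was 32.1, 30.7 and 27.9 TPM in siIRF4 and 21.4, 20.7 and 21.5 TPM in CTRL libraries. The groups did not overlap in either line. TIGIT rose by 0.57 in MM1R (log2, SE 0.081, limma adjusted p = 6.41e-06) and by 0.49 in MM1S (log2, SE 0.081, limma adjusted p = 3.27e-05). With a pseudocount of 0.1 TPM the adjusted p was 0.0995 in MM1R and 0.148 in MM1S, and over all 32 alternatives it lay between 1.21e-10 and 0.0995 in MM1R and between 8.14e-08 and 0.148 in MM1S.

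TIGIT in the KMS-12 lines rested on 0 to 12 reads per library. KMS-12-BM libraries had 0.358, 0.160 and 0.0700 TPM in siIRF4 and 0.0356, 0.125 and 0.124 TPM in CTRL, and the difference of 0.12 was not called (limma adjusted p = 0.344). KMS-12-PE libraries had 0.0394, 0.0607 and 0 TPM in siIRF4 and 0.144, 0.259 and 0.391 TPM in CTRL. That fall of 0.29 was called (log2 -0.29, SE 0.081, limma adjusted p = 0.00748), at levels where 3 reads, the limit that a count of 0 allows, are worth 0.0911 to 0.118 TPM. It was lost without CTRL library 3 (limma adjusted p = 0.0542), the highest of 31 alternatives, of which the lowest was 0.000394. TIGIT in KMS-12-PE was 0 to 0.201% of the MM1S level in siIRF4 and 0.680 to 1.84% in CTRL libraries, beside the fall of ITGB7, MAF and CCND2 in the same libraries, whose part in this call was not tested.

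CD96, the other receptor of this group that binds PVR, was expressed only at trace level in the MM1 lines, at most 0.152 TPM, and clearly in the KMS-12 lines. KMS-12-PE siIRF4 libraries had 20.2, 16.4 and 16.9 TPM, against 5.95, 5.45 and 5.33 TPM in KMS-12-PE CTRL libraries. All siIRF4 libraries were above all CTRL libraries, by a log2 rise of 1.51 (SE 0.085, limma adjusted p = 9.41e-12) and a mean ratio of 3.20. In KMS-12-BM its level was 10.1, 7.66 and 8.02 TPM in siIRF4 and 6.93, 6.36 and 6.83 TPM in CTRL libraries. The rise of 0.31 there was called (log2, SE 0.085, limma adjusted p = 0.0142). It was 0.20 (limma adjusted p = 0.122) without siIRF4 library 1 and 0.27 (limma adjusted p = 0.0661) without CTRL library 2. Over 31 alternatives its adjusted p lay between 0.00542 and 0.183. The rise in KMS-12-BM was smaller than that in KMS-12-PE by 1.21 (log2 difference -1.21, SE 0.12, limma adjusted p = 3.21e-07).

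Markers of T and NK cells were compared in the same libraries, since CD28, TIGIT, CD96, CD226 and PVRIG are best known there. The summed level of the 18 T and NK markers was 72.1 to 77.7 TPM in KMS-12-PE siIRF4 and 36.1 to 41.5 TPM in KMS-12-PE CTRL libraries. In KMS-12-BM it was 41.5 to 45.7 TPM in siIRF4 and 32.9 to 35.1 TPM in CTRL libraries. In the MM1 lines the sum was lower in siIRF4, with 66.5 to 72.2 TPM in MM1R siIRF4 and 75.2 to 81.0 TPM in MM1R CTRL libraries. It was 71.9 to 76.2 TPM in MM1S siIRF4 and 81.8 to 89.6 TPM in MM1S CTRL libraries. TRAT1 made up most of these MM1 sums, with 48.4 TPM in MM1R siIRF4 and 60.8 TPM in MM1R CTRL libraries. In MM1S TRAT1 averaged 57.3 TPM in siIRF4 and 74.0 TPM in CTRL libraries. Among the other markers, CD7 rose in MM1R (log2 0.84) and MM1S (1.04), and CD3E rose in MM1S (0.76). The part of these markers in the members' changes was not tested. Of the 18 markers, 8 averaged at least 1 TPM in KMS-12-PE siIRF4 libraries and 7 in its CTRL libraries. The highest there were CD3E, a chain of the T cell receptor complex, with 26.5 TPM in siIRF4 and 9.51 TPM in CTRL libraries, CD7, with 21.0 TPM in siIRF4 and 8.61 TPM in CTRL libraries, and CD3G, with 10.0 TPM in siIRF4 and 8.37 TPM in CTRL libraries. CD3E rose by 1.39 and CD7 by 1.20 in KMS-12-PE (log2, limma adjusted p at most 5.24e-07). CD3D, the partner chain of CD3E, was at 0 in all 3 KMS-12-PE siIRF4 libraries, and CD2 was at most 0.763 TPM there. The NK cell and T cell gene PRF1 averaged 3.14 TPM in KMS-12-PE siIRF4 and 0.0704 TPM in KMS-12-PE CTRL libraries.

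CD226, the activating receptor for PVR and PVRL2, stayed near 1 TPM in the MM1 lines. It averaged 0.917 ± 0.099 TPM in MM1R siIRF4 and 1.08 ± 0.168 TPM in MM1R CTRL libraries (SD, n = 3 each). In MM1S the averages were 1.04 ± 0.222 TPM in siIRF4 and 1.01 ± 0.181 TPM in CTRL libraries. The groups overlapped in both lines, with 20 to 32 reads in each of the 12 libraries. The differences were -0.12 in MM1R (SE 0.098, limma adjusted p = 0.371) and 0.02 in MM1S (SE 0.098, limma adjusted p = 0.906). In the KMS-12 lines CD226 had 0 to 5 reads per library.

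PVR, the ligand of TIGIT, CD96 and CD226, fell in both MM1 lines. MM1R siIRF4 libraries had 13.1, 12.6 and 12.6 TPM, against 16.5, 16.2 and 15.6 TPM in MM1R CTRL libraries. MM1S siIRF4 libraries had 19.5, 17.0 and 17.5 TPM, against 21.1, 20.6 and 21.7 TPM in MM1S CTRL libraries. All siIRF4 libraries were below all CTRL libraries of their line. The fall was 0.31 in MM1R (log2 -0.31, SE 0.073, limma adjusted p = 0.00128) and 0.22 in MM1S (log2 -0.22, SE 0.073, limma adjusted p = 0.0153). The MM1S call was lost without siIRF4 library 2 (limma adjusted p = 0.075), without siIRF4 library 3 (0.0548) or without CTRL library 3 (0.0526), with a range of 8.37e-05 to 0.436 over 32 alternatives. In MM1R the adjusted p lay between 8.79e-06 and 0.259, the highest with a pseudocount of 0.1 TPM.

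In the KMS-12 lines PVR had 4 to 23 reads per library. KMS-12-PE averaged 0.179 TPM in siIRF4 and 0.346 TPM in CTRL libraries, a called fall of 0.19 (log2 -0.19, SE 0.073, limma adjusted p = 0.0442). This call was lost under 16 of 31 alternatives, voom on recovered reads (0.0564) among them, with adjusted p between 0.0183 and 0.145, the highest without CTRL library 1. PVR there was 0.822 to 1.31% of the MM1S level in siIRF4 and 1.37 to 1.91% in CTRL libraries. The MM1 genes and KRT5 were lower in the same siIRF4 libraries, and their part in the PVR call was not tested. KMS-12-BM averaged 0.219 TPM in siIRF4 and 0.0895 TPM in CTRL libraries (log2 0.16, limma adjusted p = 0.154, and 0.0155 without siIRF4 library 3).

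PVRL2, the ligand of PVRIG and CD226, was low in every line. Its highest level was in KMS-12-BM, the line with the highest PVRIG, with 2.26, 1.6 and 2.03 TPM in siIRF4 and 2.01, 1.40 and 1.39 TPM in CTRL libraries. These groups overlapped, and the difference of 0.19 was not called (SE 0.14, limma adjusted p = 0.385). Elsewhere PVRL2 was between 0 and 0.781 TPM per library, with 0 to 29 reads. MM1S averaged 0.506 TPM in siIRF4 and 0.501 TPM in CTRL libraries, and MM1R averaged 0.0522 TPM in siIRF4 and 0.0705 TPM in CTRL libraries. MM1S, unlike MM1R, also held KRT5 and COL1A1 reads, whose part in the PVRL2 level was not tested.

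CD28, the co-stimulatory receptor for CD80 and CD86, had the highest level of the members per length in both MM1 lines. MM1R siIRF4 libraries had 258, 258 and 255 TPM, against 219, 197 and 200.2 TPM in MM1R CTRL libraries. MM1S siIRF4 libraries had 257, 253 and 240 TPM, against 191, 188 and 179 TPM in MM1S CTRL libraries. The groups did not overlap. The differences were 0.32 in MM1R and 0.43 in MM1S (log2, SE 0.14 each), at ratios of 1.25 and 1.35. These are descriptions, without a test.

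CD28 was lower by far in the KMS-12 lines, which differed from each other. KMS-12-PE siIRF4 libraries had 10.1, 8.19 and 8.83 TPM, against 4.71, 4.43 and 5.08 TPM in KMS-12-PE CTRL libraries, a difference of 0.80 (log2, SE 0.14) at a ratio of 1.91. CD28 was 3.28 to 4.06% of the MM1S level in KMS-12-PE siIRF4 and 2.39 to 2.73% in KMS-12-PE CTRL libraries. ITGB7, MAF and CCND2 were at most 1.25% in each of these libraries, so the CD28 share exceeded theirs in all 6. It was higher in siIRF4 while theirs was lower.

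KMS-12-BM gave another picture. Its libraries had 2.07, 0.90 and 0.744 TPM of CD28 in siIRF4 and 0.584, 0.889 and 0.736 TPM in CTRL, on 35 to 114 and 27 to 47 reads. As a percent of the MM1R level, CD28 was 0.804, 0.350 and 0.289% in siIRF4 and 0.284, 0.433 and 0.358% in CTRL libraries. In 5 of the 6 libraries this share lay between the lowest and the highest share of ITGB7, MAF and CCND2, and in CTRL library 1 it was just below all 3. The difference of 0.32 (log2, SE 0.14) was 0.07 without siIRF4 library 1, the library with the highest share of the MM1 genes. CD28 in KMS-12-BM was thus at the level at which genes of the MM1 lines were found there, and whether any of it belonged to KMS-12-BM cells cannot be told apart from it.

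**Figure D2:**
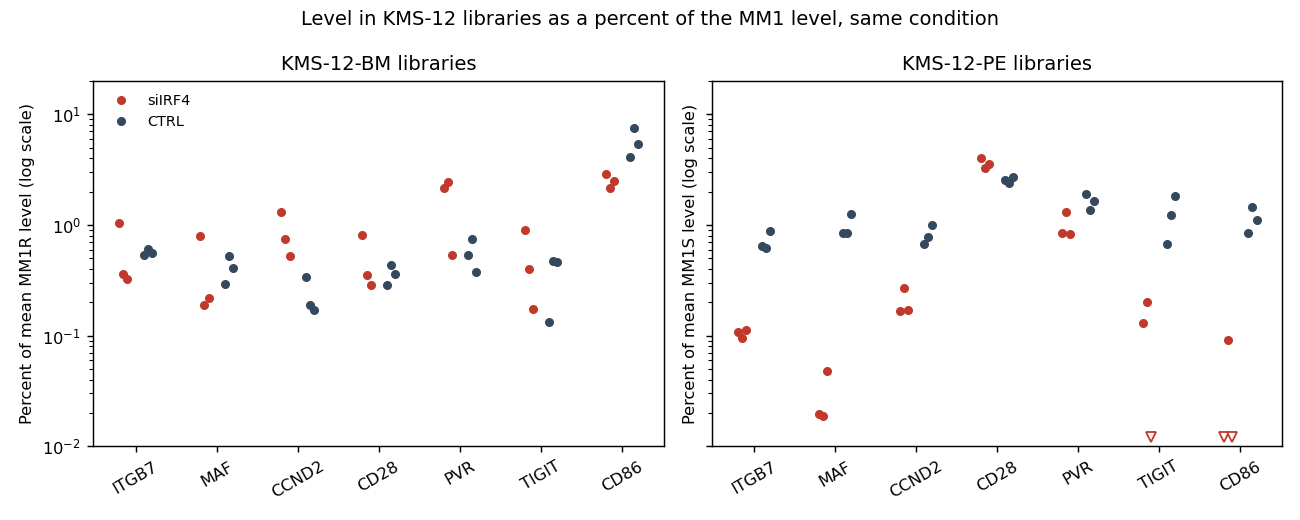
Level of 3 MM1 genes (ITGB7, MAF, CCND2) and 4 members in each KMS-12 library as a percent of the mean level in MM1R (left) or MM1S (right) in the same condition, log axis, siIRF4 left of CTRL; open triangles are values of 0. CD28 lay among the MM1 genes in KMS-12-BM, but at 3.28 to 4.06% in siIRF4 and 2.39 to 2.73% in CTRL libraries of KMS-12-PE, above them.

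CD86, a ligand of CD28, showed the largest change of the tested members in the MM1 lines. MM1R siIRF4 libraries had 56.2, 46.1 and 43.1 TPM, against 19.1, 16.8 and 17.0 TPM in MM1R CTRL libraries. MM1S siIRF4 libraries had 31.9, 36.9 and 33.6 TPM, against 13.9, 12.5 and 12.5 TPM in MM1S CTRL libraries. No siIRF4 library came near the CTRL range of its line. CD86 rose by 1.40 in MM1R (log2, SE 0.10, limma adjusted p = 5.47e-10) and by 1.33 in MM1S (log2, SE 0.10, limma adjusted p = 7.41e-10), at ratios of 2.75 and 2.63. These calls held under all 32 alternatives, with adjusted p at most 1.12e-05 in MM1R and 9.34e-07 in MM1S.

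Myeloid cells also carry CD86, and their markers were read beside it. The summed level of the 12 myeloid markers was 132 to 140 TPM in MM1R siIRF4 and 54.7 to 61.7 TPM in MM1R CTRL libraries. In MM1S it was 94.4 to 203 TPM in siIRF4 and 131 to 202 TPM in CTRL libraries, which overlapped. S100A9, a calcium-binding protein of neutrophils and monocytes, averaged 94.7 TPM in MM1R siIRF4 and 24.8 TPM in MM1R CTRL libraries, a rise of 1.90 (log2, SE 0.25, limma adjusted p = 6.59e-06), and made up most of the MM1R sum in siIRF4 libraries. In MM1S it averaged 82.9 TPM in siIRF4 and 75.4 TPM in CTRL libraries (limma adjusted p = 0.855). FCER1G, another of the 12 markers, averaged 5.77 TPM in MM1S siIRF4 and 2.46 TPM in MM1S CTRL libraries. That rise was called (log2 0.94, SE 0.22, limma adjusted p = 0.00156), and the MM1R difference was not (log2 -0.11, limma adjusted p = 0.741). S100A8 averaged 0 TPM in both MM1R groups, 43.2 TPM in MM1S siIRF4 and 52.7 TPM in MM1S CTRL libraries (MM1S limma adjusted p = 0.315). The part of these markers in the CD86 change was not tested. CD14 was at most 0.482 TPM in MM1S siIRF4 and 0.180 TPM in MM1R siIRF4 libraries, and LYZ at most 0.168 TPM in MM1R siIRF4 libraries and 0 in MM1S siIRF4 libraries. Of the 12 markers, 3 averaged at least 1 TPM in MM1R siIRF4 and 3 in MM1R CTRL libraries. In MM1R siIRF4 libraries CD68, a lysosomal gene of many cells, averaged 34.5 TPM, against 28.5 TPM in CTRL.

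In KMS-12-BM CD86 had 1.39, 1.06 and 1.21 TPM in siIRF4 and 0.723, 1.33 and 0.946 TPM in CTRL libraries, which overlapped (log2 0.16, SE 0.10, limma adjusted p = 0.316). This was 2.18 to 2.88% of the MM1R level in siIRF4 and 4.10 to 7.53% in CTRL libraries, above the shares of ITGB7, MAF and CCND2 in each. In KMS-12-PE CD86 had 0, 1 and 0 reads in siIRF4 and 3, 5 and 4 reads in CTRL libraries. The limit that a count of 0 allows, 3 reads, is worth 0.0925 to 0.120 TPM there, so a level in KMS-12-PE siIRF4 cells was not detectable at this depth. This limit of 3 reads covers counting error only. The difference of -0.18 was not called (limma adjusted p = 0.166). It was called with a pseudocount of 0.1 TPM (log2 -1.17, limma adjusted p = 1.66e-05) and with voom on recovered reads (limma adjusted p = 0.0272). CD86 in KMS-12-PE was 0 to 0.0905% of the MM1S level in siIRF4 and 0.848 to 1.45% in CTRL libraries. ITGB7, MAF and CCND2 were also lower in the same siIRF4 libraries, and their part in the CD86 difference was not tested.

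CD80, the other B7 ligand of CD28, reached at most 0.254 TPM in any library, with 0 to 6 reads, and was not tested. MM1R siIRF4 libraries had 5, 4 and 4 reads, against 1 read in each CTRL library. CD86 was therefore the B7 ligand with the higher level in MM1R, MM1S and KMS-12-BM.

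CD274, which encodes PD-L1, was low and differed between the MM1 lines. MM1R siIRF4 libraries had 2.41, 2.46 and 2.03 TPM, against 1.61, 1.36 and 1.40 TPM in MM1R CTRL libraries, with no overlap. CD274 rose there by 0.42 (log2, SE 0.087, limma adjusted p = 0.000412), with an adjusted p of 0.0679 at a pseudocount of 0.1 TPM and a range of 0.000119 to 0.0679 over 31 alternatives. MM1S averaged 1.03 ± 0.095 TPM in siIRF4 and 1.0 ± 0.073 TPM in CTRL libraries (SD, n = 3 each), which overlapped (log2 0.02, limma adjusted p = 0.892). The change in MM1R exceeded that in MM1S by 0.40 (log2, SE 0.12), which did not pass the adjusted threshold (limma adjusted p = 0.085). Both KMS-12 lines had 0.05 to 0.384 TPM, on 2 to 16 reads.

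**Figure D3:**
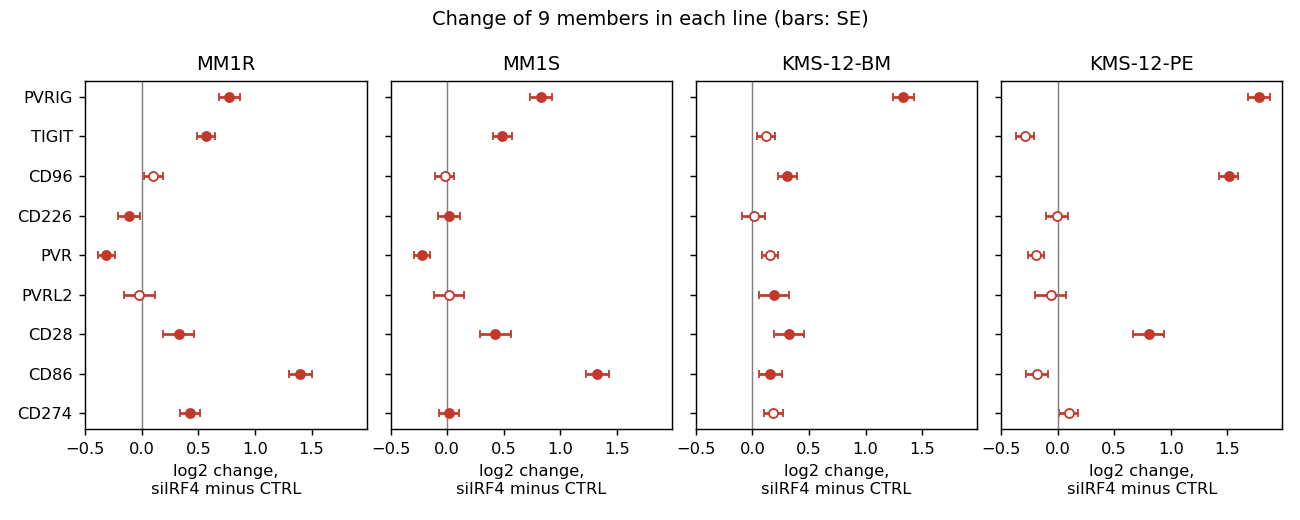
Log2 change (siIRF4 minus CTRL) of the 9 members that passed the filter, by line, with the SE as bars; open circles mark members with a mean below 1 TPM in both conditions of the line. PVRIG lay between 0.77 and 1.78 in all 4 lines, CD86 at 1.40 and 1.33 in MM1R and MM1S, and CD96 at 1.51 in KMS-12-PE.

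Counts over the 7 tested members other than PVRIG and CD28 are read against all genes. In MM1R 3 of the 7 were called higher (TIGIT, CD86, CD274) and 1 lower (PVR), where 25.0% of all 15113 genes were called higher and 21.2% lower. In MM1S 2 were higher (TIGIT, CD86) and 1 lower (PVR), against 29.1% and 21.1% of all genes. In KMS-12-BM 1 was higher (CD96) and 0 lower, against 11.4% and 6.09%. The count of 0 lower is by limma, with 3 of the 7 at an unadjusted p under 0.05 in either direction, none of which was below CTRL. In KMS-12-PE 1 was higher (CD96) and 2 lower (PVR and TIGIT, both below 0.5 TPM, whose calls were lost without CTRL library 3), against 15.9% and 22.2%. On average over the lines 4 were higher (TIGIT, CD96, CD86, CD274) and 1 lower (PVR), against 33.1% and 26.5% of all genes. The averages mix lines that express a gene with lines that do not, and with voom on recovered reads the TIGIT average was -0.19 (limma adjusted p = 0.504), the CD86 average 0.11 (0.757) and the PVR average -0.13 (0.497). With a pseudocount of 0.1 TPM the adjusted p was 0.287 for the PVR average and 0.795 for the TIGIT average (limma). In MM1S, KMS-12-BM and KMS-12-PE the share of members called higher was near that of all genes.

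Differences between lines were tested for the same 7 members. Between MM1R and MM1S 0 were called by limma, with 1 (CD274) at an unadjusted p under 0.05 and 0 by voom, where 2.47% of all genes were called. The KMS-12 lines differed for 3 members (PVR, TIGIT and CD96), against 23.0% of all genes. The MM1 lines differed from the KMS-12 lines for 4 members, against 44.9% of all genes. CD86 changed more in the MM1 lines by 1.38 (log2, SE 0.10, limma adjusted p = 6.36e-10) and TIGIT by 0.61 (SE 0.081, limma adjusted p = 2.67e-06). CD96 changed less in the MM1 lines by 0.87 (log2 difference -0.87, SE 0.085, limma adjusted p = 3.57e-08), where it was expressed at trace level.

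In the order of PVRIG levels, KMS-12-BM was highest and KMS-12-PE lowest in both conditions, with MM1R and MM1S between them. The siIRF4 libraries of MM1R and MM1S overlapped, and their CTRL libraries did not, MM1R being higher. CD28 followed another order, with MM1R and MM1S highest and overlapping in siIRF4, then KMS-12-PE, then KMS-12-BM. CD96 was highest in KMS-12-PE among siIRF4 cells, while among CTRL cells KMS-12-BM, at 6.71 ± 0.308 TPM, was above KMS-12-PE, at 5.57 ± 0.332 TPM (SD, n = 3 each). Each of these orders is a description, because the members were chosen for expression in these lines.

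Genes with the most similar pattern over the 24 libraries were sought by Pearson r of log2(TPM + 1), given as a description because libraries of a line share their background. PVRIG had few, HELZ2 (r = 0.965), RHPN1 (0.922) and TRPV2 (0.909), and 1 gene at 0.95 or more. CD96 was most like CD83 (0.995), RPS6KA5 (0.987) and TNFRSF18 (0.986), with 270 genes at 0.95 or more. CD28 was most like APOL6 (0.998), GNPTAB (0.997) and HEMGN (0.996), and CD86 most like GIMAP8 (0.993), TRADD and NCK2 (both 0.992). TIGIT was most like NUAK1 and ZNF841 (both 0.999) and IMPACT (0.998), and PVR most like DAPK1 (0.999), HERC5 and EIF4E3 (both 0.998). For TIGIT, PVR, CD28 and CD86, 616, 556, 550 and 402 genes reached 0.95, all 4 being far apart in level between the MM1 and the KMS-12 lines.

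Other genes of the PVR-nectin family were read from a list of 5, of which 3 were tested. On average 2 were called higher and 1 lower, where 33.1% of all genes were higher and 26.5% lower, with a median change of 0.14 against 0.02 over all genes. PVRL1, which encodes nectin-1, a cell adhesion molecule, had 59.8 TPM in KMS-12-PE siIRF4 and 26.6 TPM in KMS-12-PE CTRL libraries (log2 1.14, SE 0.061, limma adjusted p = 4.47e-12). It also rose in MM1R (0.23) and MM1S (0.38). PVRL3, whose product is a ligand of PVR and TIGIT, rose in MM1R (0.33) and MM1S (0.35). CADM1, an adhesion molecule that binds CRTAM, fell in KMS-12-PE (-0.95) and in KMS-12-BM (-0.40).

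Of 12 other CD28-B7 genes 8 were tested. Of these, TMIGD2 and BTLA reached 1 TPM in libraries of 1 condition alone, so that the filter favoured a difference, and their values are given as a description. Of the other 6, 4 were higher and 1 lower on average (33.1% and 26.5% of all genes), with a median of 0.26. ICOSLG, the ligand of ICOS, rose in KMS-12-PE, with 73.2 TPM in siIRF4 and 33.5 TPM in CTRL libraries (log2 1.11, SE 0.063, limma adjusted p = 1.25e-11). PDCD1LG2, the second ligand of PD-1, rose in MM1R (0.57) and MM1S (0.47). Its averages were 4.87 TPM in MM1R siIRF4 and 2.95 TPM in MM1R CTRL libraries, and 4.70 TPM in MM1S siIRF4 and 3.12 TPM in MM1S CTRL libraries. CD276, an inhibitory B7 molecule, fell in MM1R (-0.36) and in KMS-12-PE (-0.41, at 0.177 TPM in siIRF4 and 0.571 TPM in CTRL libraries, where KRT5 was also lower in siIRF4 and its part was not tested).

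PDCD1, which encodes PD-1, separated the sister lines MM1R and MM1S. It had 0 reads in all 6 MM1R libraries, where 3 reads are worth 0.121 to 0.169 TPM, and 15.8, 14.8 and 14.1 TPM in MM1S siIRF4 and 16.1, 17.3 and 16.8 TPM in MM1S CTRL libraries. The MM1S difference was not called (log2 -0.16, limma adjusted p = 0.215). In KMS-12-PE PDCD1 rose by 0.42 (log2, limma adjusted p = 0.00332), on 9 to 12 reads in siIRF4 and 1 to 3 reads in CTRL libraries.

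TNFRSF14, the receptor bound by BTLA, rose in MM1R (0.49), MM1S (0.62) and KMS-12-PE (0.60) and fell in KMS-12-BM (-0.48). BTLA itself had 0.800 TPM in KMS-12-PE siIRF4 and 1.62 TPM in KMS-12-PE CTRL libraries, the group through which it passed the filter. C10orf54, which encodes the checkpoint molecule VISTA, rose in KMS-12-PE (0.78), MM1S (0.62) and KMS-12-BM (0.61), and differed by -0.01 in MM1R (limma adjusted p = 0.974). TMIGD2, a receptor for a B7 ligand, averaged 1.36 TPM in KMS-12-BM siIRF4 and 0.275 TPM in KMS-12-BM CTRL libraries, and passed the filter through those siIRF4 libraries.

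Of 28 further checkpoint genes 22 were tested, of which CEACAM1 and SIGLEC10 reached 1 TPM in siIRF4 libraries alone. Of the other 20, 9 were higher and 5 lower on average (33.1% and 26.5% of all genes), with a median of 0.11, so the share that was lower was near that of all genes. Those named are the called genes with the smallest p. HAVCR2, which encodes the inhibitory receptor TIM-3, rose in MM1R (0.90) and MM1S (1.59), with 26.5 TPM in MM1S siIRF4 and 8.18 TPM in MM1S CTRL libraries. CD200R1, an inhibitory receptor, rose in MM1R (1.15) and MM1S (1.01). CEACAM1, an adhesion molecule, had 2.13 TPM in MM1R siIRF4 and 0.290 TPM in MM1R CTRL libraries, a description because it passed the filter through the siIRF4 libraries of MM1R and MM1S. LILRB4, an inhibitory receptor of myeloid cells, fell in MM1R (-0.63) and MM1S (-0.96). CD70, the ligand of CD27, fell in MM1R (-0.50) and MM1S (-0.67) and rose in KMS-12-PE (0.46) and KMS-12-BM (0.23). CD200 fell in KMS-12-PE (-0.99).

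**Figure D4:**
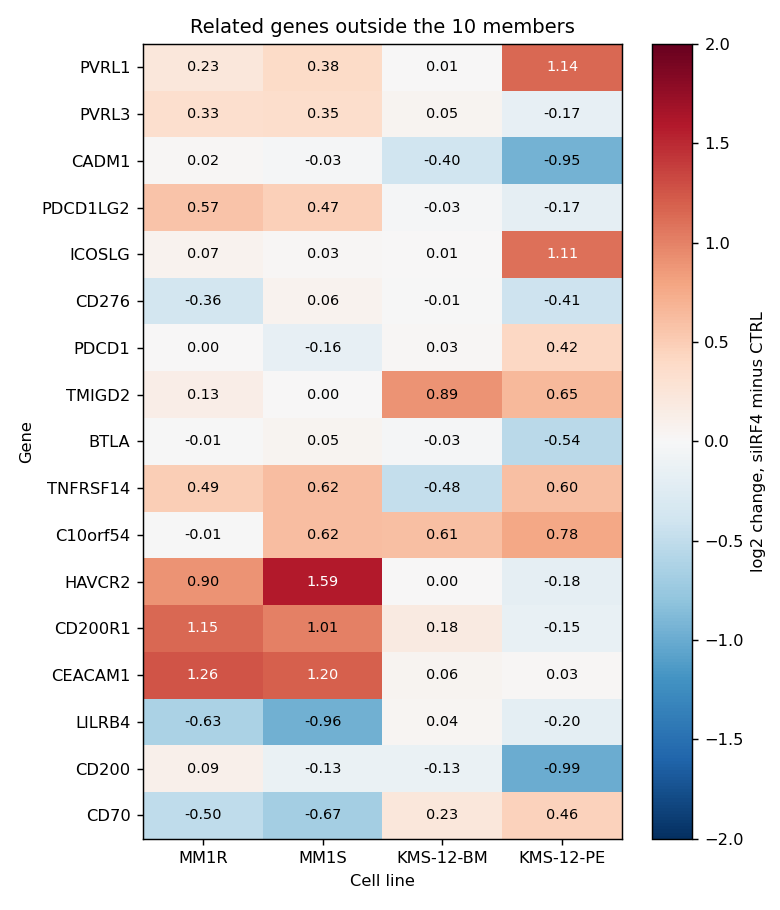
Log2 change (siIRF4 minus CTRL) of 17 related genes outside the 10 members, by cell line; red is higher and blue lower in siIRF4. HAVCR2 and CD200R1 rose in MM1R and MM1S, PVRL1 and ICOSLG rose most in KMS-12-PE (1.14 and 1.11), and CD70 differed in sign between the MM1 and the KMS-12 lines.

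Signalling genes downstream of CD28 were a list of 22, with 20 tested, of which 11 were higher and 4 lower on average (33.1% and 26.5% of all genes; median 0.11). PIK3R1, the regulatory subunit of PI3 kinase that binds the CD28 tail, rose in MM1R (0.47), MM1S (0.47) and KMS-12-PE (0.58). INPP5D, the phosphatase SHIP that opposes PI3 kinase, rose in all 4 lines, most in MM1S (0.77) and MM1R (0.63), less in the other pair of lines, with 0.18 in KMS-12-PE and 0.34 in KMS-12-BM. PTPN6, the phosphatase SHP-1, rose in both MM1 lines, by 0.19 (MM1R) and 0.27 (MM1S), and fell in both KMS-12 lines (-0.69 in KMS-12-PE and -0.50 in KMS-12-BM). PTPN11 (-0.15) and MALT1 (-0.12) fell on average.

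Ligands of NK cell receptors gave no common direction, with 4 of 9 tested higher and 4 lower on average (33.1% and 26.5% of all genes; median 0.10). ICAM1, the ligand of LFA-1, rose in MM1R (0.48), MM1S (0.78) and KMS-12-PE (0.48). CD58, the ligand of CD2, fell in MM1R (-0.51), MM1S (-0.55) and KMS-12-PE (-0.64), and the NKG2D ligand MICB fell in the same lines (-0.52, -0.55 and -0.24). MICA, another NKG2D ligand, fell in MM1R (-0.46) and MM1S (-0.48). HLA-E, the ligand of NKG2A, rose in MM1R (0.18), MM1S (0.20) and KMS-12-PE (0.25), and NCR3LG1, the ligand of NKp30, rose in KMS-12-PE (0.85). A separate list held 10 transcription factors that regulate T cell co-stimulation. Of these 10, 8 were higher and 1 lower on average (33.1% and 26.5% of all genes). IRF1 (0.68), REL (0.59) and NFATC1 (0.38) were higher and JUN was lower (-0.62).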

How the data were processed

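Total RNA of 24 libraries was sequenced, 3 siIRF4 and 3 CTRL of each of 4 lines, with libraries from the NEBNext Ultra II kit, per the labels' protocols. STAR, featureCounts, FastQC, MultiQC and hg19 are named without versions, per the submitters' processing notes. The deposited values are TPM by the authors; the sources used here give no annotation, gene lengths or strand setting. Of 25370 rows, 28 that spreadsheet software had turned into dates and 1 without a name were dropped. Whole reads could be recovered for 20484 genes (tolerance 0.02 reads, at least 6 libraries with a value), which hold at least 99.96% of each library's TPM. No replicate pair was a copy of one library (lowest chi-square per degree of freedom 2.1).

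The tests took log2(TPM + 1) for 15113 genes that had at least 1 TPM in at least 3 libraries, in 1 fit of 8 group means with limma 3.58.1 in R 4.3.3 (trended, robust eBayes prior, 16 residual degrees of freedom). A gene counted as called when its two-sided p, adjusted by Benjamini-Hochberg over all genes in a comparison, was under 0.05. The script was tested on simulated data. The 10 members and the lists were chosen with earlier results of these data known, so PVRIG and CD28 were not tested. Named were all members, IRF4, the PVR-nectin and CD28-B7 genes past the filter, and the genes that overlap PVRIG. Of each other list, up to 3 higher and 3 lower called genes with the smallest p were named. The 3 genes most like each member with a mean of at least 1 TPM and single marker genes were named as well. LYZ, CD68, CD2, CD3G, CD14, TRAT1, S100A9, EPCAM, SIGLEC10, PVRIG2P and STAG3L5P-PVRIG2P-PILRB were named after their values were seen. Alternatives were a pseudocount of 0.1 TPM, a filter at a mean of 5 TPM or none, scaling by median of ratios, voom on recovered reads, a prior that is neither trended nor robust, a replicate block, each line fitted alone, each library left out and, added after seeing the data, an average without KMS-12-PE. Python 3.11.15, numpy 2.4.6, pandas 2.3.3 and matplotlib 3.10.9 were used.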

Additional observations from a re-analysis of the deposited data

Results flagged for a closer look

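For 4 members the change under siIRF4 differed between lines by a test of the difference itself (limma, all 24 libraries, adjusted over 15113 genes). CD86 changed by 1.38 more in the MM1 than in the KMS-12 lines (log2, limma adjusted p = 6.36e-10). TIGIT changed by 0.61 more in the MM1 lines (limma adjusted p = 2.67e-06), and by 0.41 more in KMS-12-BM than in KMS-12-PE (limma adjusted p = 0.0129), the last on 0 to 12 reads per library. CD96 differed by -0.87 between the MM1 and KMS-12 lines (limma adjusted p = 3.57e-08) and by -1.21 between KMS-12-BM and KMS-12-PE (limma adjusted p = 3.21e-07). PVR differed by -0.25 between the MM1 and KMS-12 lines (limma adjusted p = 0.00806) and by 0.35 between KMS-12-BM and KMS-12-PE (limma adjusted p = 0.019), the KMS-12 values on 4 to 23 reads per library. In each case a line with a level near 0 entered the difference, except CD96 between the KMS-12 lines.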

How the results depend on the processing

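PVRIG was higher in siIRF4 cells of every line under all 32 alternatives, by 0.72 to 0.84 (log2, MM1R), 0.76 to 0.88 (MM1S), 1.70 to 1.98 (KMS-12-PE) and 1.23 to 1.44 (KMS-12-BM). The number of members called, of 7, changed with several settings. With a pseudocount of 0.1 TPM it was 3 on average (5 as reported), 2 in MM1R (4), 1 in MM1S (3) and 0 in KMS-12-BM (1). With a mean of at least 5 TPM it was 3 on average and 0 in KMS-12-BM, since fewer genes were tested. At that filter 15 checkpoint genes outside the members were called on average, in either direction. The share of all genes called at a mean of at least 5 TPM was not counted. At the main filter 33 checkpoint genes outside the members were tested, with 18 higher and 8 lower (33.1% and 26.5% of all genes). Of those 33, 29 reached 1 TPM in both conditions, with 15 higher and 7 lower. With voom the number of members called was 2 on average and 2 between the MM1 and KMS-12 lines (4). Without the trend in the prior it was 1 between MM1R and MM1S (0). Each line fitted alone gave 1 in KMS-12-PE (3), where PVR and TIGIT did not pass the filter, and 0 in KMS-12-BM. With single libraries left out the count was 0 to 3 in KMS-12-BM (0 without siIRF4 library 1 or CTRL library 2, 3 without siIRF4 library 3) and 1 to 3 in KMS-12-PE (1 without CTRL library 3). Directions turned for the TIGIT average with voom (-0.19) and, among changes that were not called, with single libraries left out for CD226 in MM1S (-0.0593 to 0.0977), CD274 in MM1S (-0.014 to 0.0537) and the PVRL2 average (-0.0093 to 0.0642). They also turned for changes that rest on few reads: CD226 in KMS-12-BM (-0.0429 with a pseudocount of 0.1 TPM, -0.3839 with voom, -0.065 to 0.0816 with single libraries left out) and in KMS-12-PE (-0.0448 to 0.0256), and PVRL2 in MM1R (0.2373 with voom, -0.0687 to 0.0496), MM1S (-0.1438 to 0.15) and KMS-12-PE (-0.126 to 0.0241). The cause was not tested.

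Replicate numbers did not pair the libraries: the correlation of same-numbered deviations was -0.088 to 0.086 in 12 pairs, 0 of them over 0.1, and 2 of 12 siIRF4 libraries correlated best with the CTRL library of their own number. With the replicate block 5 members were called on average, 4 in MM1R, 3 in MM1S, 2 in KMS-12-PE (3 without it) and 1 in KMS-12-BM. Depth limits CD80, CD226, PVRL2 and the near-absent members of the KMS-12 lines, which rest on few reads.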

Other observations

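Reads of some genes known from T and B cells differed beside the members, and the source of these reads was not tested. Of the 18 T and NK markers, 10 were tested and reached 1 TPM in libraries of both conditions. Of these, 6 were higher and 2 lower on average (33.1% and 26.5% of all genes). PRF1, which encodes perforin, is 1 of those 6 and differed by 0.93 on average over the 4 lines (log2, SE 0.071). Its mean was below 1 TPM in every CTRL group, at most 0.867 TPM (KMS-12-BM). In siIRF4 libraries it averaged 4.46 TPM in KMS-12-BM and 3.14 TPM in KMS-12-PE. The filter may thus have favoured a difference, and the PRF1 values are given as a description. CD7 rose by 0.87 (SE 0.068, limma adjusted p = 5.03e-10). The PRF1 rise was called in KMS-12-PE (1.95) and KMS-12-BM (1.53), but not in MM1R (-0.03) or MM1S (0.26). Those lower were TRAT1 (-0.20) and CD247 (-0.17). Of the B cell markers 5 of 10 were tested and 4 were higher on average (33.1% of all genes), with CD79B at 0.47 (SE 0.034, limma adjusted p = 1.37e-10). Of the plasma cell markers 8 of 10 were lower and 1 higher on average, where 26.5% of all genes were lower and 33.1% higher. IRF4, the target of the siRNA, is 1 of those 8. Among the others was TNFRSF17, which encodes BCMA, at -1.71 (SE 0.032, limma adjusted p = 2.41e-19).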
